A study of Mus musculus with 9 samples.

Results

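This account covers the genes of the integrin alpha and beta subunits, the laminin chains, and 5 genes whose products join cells and laminin into a basement membrane (Nid1, Nid2, Hspg2, Agrn and Dag1). Members were chosen by official symbol, Itga or Itgb and Lama, Lamb or Lamc with a number or letter, together with those 5. The genes of integrin-binding or integrin-like proteins that share the start of the symbol (Itgb1bp, Itgb3bp, Itgbl1) were left out. The rule took 43 of the 28059 genes in the deposited table: 18 integrin alpha subunits, 9 integrin beta subunits, 5 laminin alpha, 3 laminin beta and 3 laminin gamma chains, and the 5 linkers. No measured value entered the rule.

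Integrins are cell surface receptors made of 1 alpha and 1 beta subunit, and the pair decides which matrix protein is bound. Laminins are cross-shaped trimers of an alpha, a beta and a gamma chain that assemble into a sheet on the cell surface. Nidogens and the heparan sulfate proteoglycan perlecan (Hspg2) tie that sheet to the type IV collagen network, while agrin (Agrn) and dystroglycan (Dag1) tie it to the cell. In the intestine this sheet carries the epithelium, and laminin-binding integrins hold the epithelial cells to it.

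RNA was sequenced from YAMC cells, a conditionally immortalized mouse intestinal line whose name stands for young adult mouse colon, in 9 libraries of 3 groups. The groups were the parental line, labelled wildtype, and 2 Cdk8 -/- knockout lines made with CRISPR, clone 1 and clone 19, with 3 libraries each. Cdk8 encodes the kinase of the Mediator kinase module, and the design compares each clone with the parental cells. Every culture was kept at 32 °C and taken in logarithmic growth, and genotype and clone are the only labelled differences. Each knockout line is 1 clone. A clone that kept Cdk8 was not analysed here, so the knockout and cloning itself cannot be told apart in any comparison with the parental line. The labels do not say whether the 3 libraries of a group came from separate cultures. All p-values below therefore measure only the spread between these libraries, which may be technical, and both clones are compared with the same 3 parental libraries. In bulk RNA, fewer cells of a type and less RNA per cell cannot be told apart.

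Values are in RPKM, reads per kilobase of gene and per megaread of the library, so levels can be compared between genes per unit of length. Between 20.1 and 36.0 megareads per library fell on the 12568 genes tested, those with at least 1 RPKM in at least 3 libraries. Cdk8 RNA itself fell but was not lost, from 17.5 to 17.7 RPKM across the parental libraries down to 10.3 to 11.6 RPKM in clone 1 and 10.3 to 10.5 RPKM in clone 19. The amount of CDK8 protein cannot be read from these RNA levels. The labels give the tissue as small intestine, but of the defining markers of intestinal epithelium Cdx2 was listed at 0 in every library and Vil1 and Epcam stayed below 1 RPKM. Keratins (Krt8, Krt18, Krt19) and the mesothelial genes Upk1b, Upk3b and Wt1 were abundant.

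In both clones some integrin alpha subunits, integrin beta subunits and linkers rose while others of the same family fell. Nid1 fell to 28.1% and 20.7% of its parental level while Nid2 rose, the laminin receptor subunit Itga3 rose 2.09-fold and 1.97-fold while Itga5 and Itga6 fell, and the beta subunits Itgb1, Itgb3 and Itgb8 rose. Of the 43 members, 25 could be tested. In clone 1, 22 of the 25 were called at an adjusted p under 0.05 (limma, Benjamini-Hochberg). Of all tested genes 72.4% were called. The members split into 15 higher, where 39.8% of all tested genes were called higher, and 7 lower, where 32.6% were. In clone 19 the count was again 22 (69% of all tested genes), 15 of them higher (36.7%) and 7 lower (32.3%). In both clones 20 members were called the same way (56.5% of all tested genes), 14 of them higher (30.7%) and 6 lower (25.8%), and none was called in opposite directions (1.93%). Since so many genes were called, the size of a change says more than the call. Called and at least 2-fold on the log2(RPKM + 0.5) scale were 5 members in clone 1 (4.46% of tested genes) and 6 in clone 19 (4.07%). The median absolute log2 change over the members was 0.72 in clone 1 and 0.48 in clone 19, beside 0.22 and 0.20 over all tested genes. The median signed change was 0.24 and 0.26, beside 0.03 and 0.02, and over the 21 members at or above 1 RPKM in all 9 libraries it was 0.48 and 0.33. These medians describe members that passed the filter and not all 43. Among the 21, 20 were called in clone 1 and 19 in clone 19. The other 4 of the 25 reached 1 RPKM only in some libraries: Itgal in clone 19 alone, Itgb7 in the parental line alone, Itgb4 in the parental line and clone 19, and Itga2b in the parental line and 1 library of each clone. A fold change below is the difference of means of log2(RPKM + 0.5), a scale that understates the change of low genes, and its error is the standard error (SE).

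**Figure D1:**
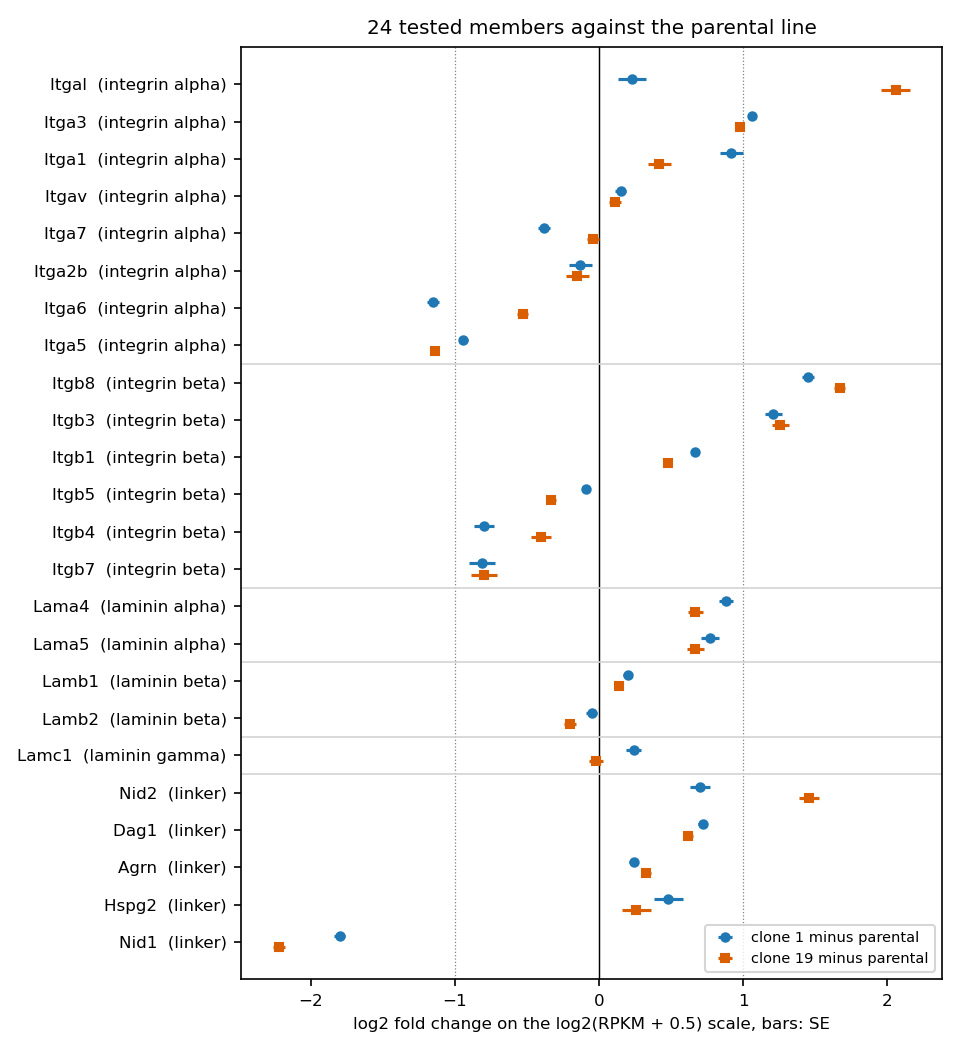
Log2 fold change of 24 of the 25 tested members against the parental line, on the log2(RPKM + 0.5) scale, for clone 1 (circles) and clone 19 (squares), with bars for the SE and dotted lines at a 2-fold change. Integrin alpha and beta subunits and linkers lie on both sides of 0: among the linkers Nid1 is at -1.80 and -2.22 while Nid2 is at 0.70 and 1.46.

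On the scale of the test, 8 members changed at least 2-fold in some comparison. Of these, 4 have an entry in the RefSeq promoter table (build GRCm38.p6). The 250 bases before the start are shown for 3 of them, Nid1, Itga3 and Itgb8, which moved in opposite directions. Itga5, which also has an entry, is left out because the bases that follow its window were not found in a transcript of the gene. Letters in capitals mark a match on either strand to 1 of 6 motifs searched: the GC box GGGCGG, the AP-1 site TGANTCA, the TATA box TATAAA, the E-box CAGGTG bound by Snail and ZEB factors, the TEAD core GGAATG and the cyclic AMP response element TGACGTCA. None of the 6 is contained in another.
Nid1, chr13:13437352-13437601, plus strand: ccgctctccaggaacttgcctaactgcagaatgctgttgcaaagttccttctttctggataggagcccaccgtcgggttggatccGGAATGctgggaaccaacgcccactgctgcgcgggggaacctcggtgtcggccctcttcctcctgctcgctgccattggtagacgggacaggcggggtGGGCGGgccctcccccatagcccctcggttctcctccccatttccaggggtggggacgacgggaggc
Itga3, the first of 2 entries, chr11:95076715-95076964, minus strand: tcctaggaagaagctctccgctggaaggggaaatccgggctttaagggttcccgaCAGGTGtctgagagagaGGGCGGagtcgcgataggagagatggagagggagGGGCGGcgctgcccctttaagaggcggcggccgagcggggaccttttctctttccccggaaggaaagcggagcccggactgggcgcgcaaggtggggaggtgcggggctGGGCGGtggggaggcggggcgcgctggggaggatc
Itgb8, chr12:119238277-119238526, minus strand: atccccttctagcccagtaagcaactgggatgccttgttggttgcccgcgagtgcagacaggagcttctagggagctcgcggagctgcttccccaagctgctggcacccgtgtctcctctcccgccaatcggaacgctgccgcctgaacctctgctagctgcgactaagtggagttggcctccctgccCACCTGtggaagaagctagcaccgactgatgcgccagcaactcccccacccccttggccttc
The Nid1 window holds 1 GC box and 1 TEAD core. The Itga3 window holds 3 GC boxes and 1 E-box, and the Itgb8 window holds 1 E-box, read on the other strand as CACCTG. None of the 3 windows holds the AP-1, TATA or cyclic AMP response letters. Over 32851 promoters of the table, each searched over the same 250 bases and on both strands, the GC box was present in 32.7%, the E-box in 17.2%, the TEAD core in 12.6%, TATAAA in 12.4%, the AP-1 letters in 6.7% and TGACGTCA in 1.5%. The matches are a description of the sequence only.

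The nidogens showed the widest contrast within a family. Nid1 (Entrez 18073), the main nidogen, which bridges the laminin gamma1 chain and type IV collagen, stood at 56.0, 54.1 and 52.4 RPKM in parental cells. Clone 1 had 15.7, 14.3 and 15.6 RPKM, and clone 19 had 10.7, 11.7 and 11.3 RPKM. Each clone was far below every parental library, and clone 19 was below clone 1 without overlap. Mean levels were 54.2 ± 1.80 RPKM (SD, n = 3), 15.2 ± 0.815 and 11.2 ± 0.526. The parental mean was 3.56 times that of clone 1 and 4.83 times that of clone 19. On the log2 scale Nid1 fell by 1.80 ± 0.04 in clone 1 (adjusted p = 1.1e-10, limma) and by 2.22 ± 0.04 in clone 19 (adjusted p = 2.9e-11), and the step from clone 1 to clone 19 was -0.42 ± 0.04 (adjusted p = 4.6e-05). Of the members tested, none fell more in either clone. The 50 nearest tested genes in gene order had median changes of 0.05 and 0.03, so the fall was not shared by the genes around Nid1.

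Nid2 (Entrez 18074), the second nidogen, with similar binding partners, went the other way. It measured 2.31, 2.12 and 2.18 RPKM in parental cells, 4.18, 3.83 and 3.66 in clone 1 and 6.60, 6.67 and 7.63 in clone 19. The 3 groups did not overlap, and their order was parental, clone 1, clone 19. The rise was 0.70 ± 0.07 in clone 1 (adjusted p = 2.7e-06, limma) and 1.46 ± 0.07 in clone 19 (adjusted p = 7.6e-09), with a difference between the clones of 0.77 ± 0.07 (adjusted p = 1.1e-05). The gain in Nid2 did not make up for the loss of Nid1 in RNA. The summed nidogen level was 56.4 ± 1.87 RPKM in the parental line, 19.1 ± 0.925 RPKM in clone 1 and 18.2 ± 0.833 RPKM in clone 19. Within that sum the share of Nid2 went from 3.90% ± 0.123 to 20.4% ± 1.20 and 38.3% ± 2.05.

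**Figure D2:**
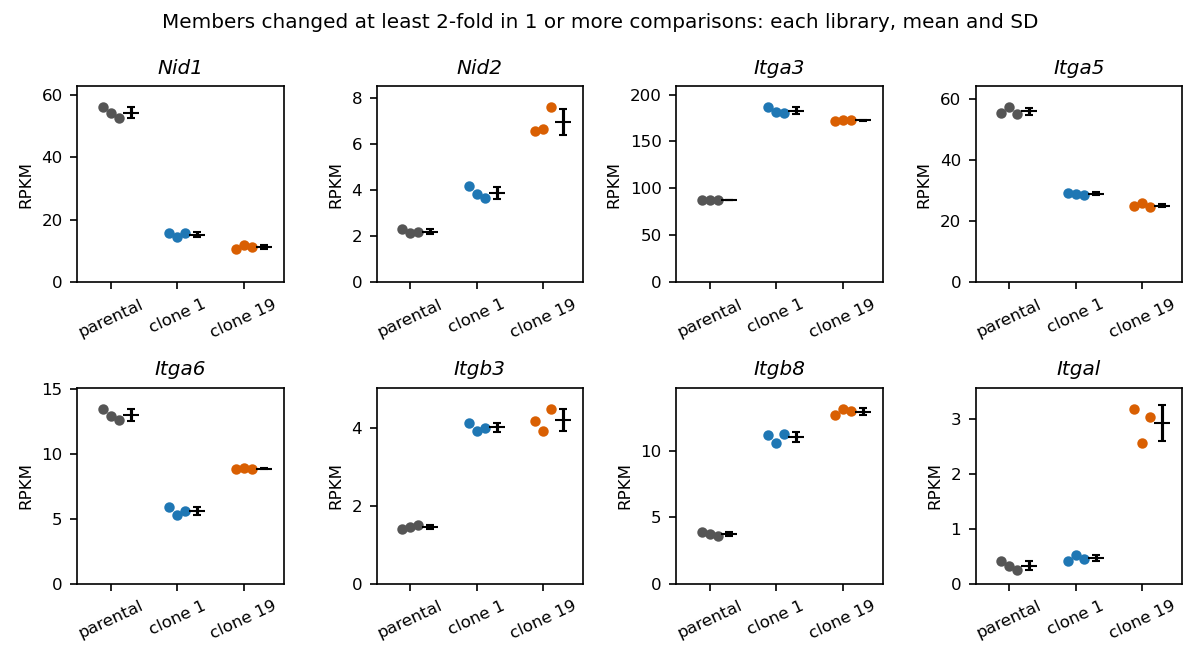
RPKM of the 8 members called at 2-fold or more on the scale of the test in 1 or more comparisons. There is 1 panel per gene. Points are the 3 libraries of each group, and the bar beside them is the mean with the SD. In Nid1 the 6 knockout libraries lie between 10.7 and 15.7 RPKM, under all parental libraries (52.4 to 56.0 RPKM), and in Itgal only the clone 19 libraries stand above 1 RPKM.

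The other 3 linkers were higher in both clones. Dag1 (Entrez 13138) encodes dystroglycan, a laminin receptor outside the integrin family, and was the most abundant linker. Its level was 71.2, 69.7 and 68.0 RPKM in parental cells, 119, 113 and 114 in clone 1 and 104, 108 and 110.1 in clone 19. All 6 knockout libraries were above the parental ones, and the rise was 0.72 ± 0.03 (adjusted p = 1.7e-09, limma) and 0.62 ± 0.03 (adjusted p = 6.3e-09). Hspg2, the perlecan gene, rose from 18.6 ± 0.845 RPKM to 26.4 ± 4.58 in clone 1 (0.48 ± 0.10, adjusted p = 9.6e-04) and to 22.4 ± 1.37 in clone 19 (0.26 ± 0.10, adjusted p = 0.031). The wide spread in clone 1 came from libraries at 31.4, 22.4 and 25.3 RPKM. The clone 19 call for Hspg2 ended without any 1 of 4 libraries: without parental replicate 1 or 3 the adjusted p was 0.061 and 0.096, and without clone 19 replicate 1 or 3 it was 0.067 and 0.1. With no filter the adjusted p of this comparison was 0.077 and with no variance trend 0.056. With neighbours subtracted it was 0.31 at a change of 0.11. Agrn, the agrin gene, rose by 0.24 ± 0.03 and 0.33 ± 0.03 (adjusted p = 5.0e-05 and 4.8e-06), from 13.6 to 16.2 and 17.3 RPKM. The 50 genes nearest to Agrn rose too, with medians of 0.30 and 0.28, and with those subtracted the 2 values became -0.06 (adjusted p = 0.15) and 0.06 (adjusted p = 0.18).

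Among the laminins, the tested alpha chains rose, while Lamb1, Lamb2 and Lamc1 differed from the parental line by at most 0.24 on the log2 scale. Lama5 (Entrez 16776), the alpha chain typical of mature epithelial basement membranes, made up 92.8% of the summed laminin alpha RPKM in the parental line. It stood at 21.6, 21.5 and 19.9 RPKM in parental cells, 40.0, 33.5 and 35.4 in clone 1 and 33.2, 33.3 and 34.4 in clone 19. Both clones lay above the parental range and overlapped each other. Lama5 rose by 0.77 ± 0.06 (adjusted p = 2.9e-07, limma) and 0.67 ± 0.06 (adjusted p = 1.1e-06). Lama4, a chain of vascular and mesenchymal basement membranes, rose from 1.54 ± 0.0683 RPKM to 3.25 ± 0.0867 and 2.75 ± 0.0555, or by 0.88 ± 0.05 and 0.67 ± 0.05 (adjusted p = 5.9e-08 and 6.0e-07). Its 50 neighbours had medians of -0.26 and -0.27, so the rise stood against lower genes around it. Lama1, Lama2 and Lama3 stayed below 0.2 RPKM in all libraries.

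Lamb1 (Entrez 16777), the most abundant beta chain, was at 29.5, 29.3 and 28.5 RPKM in parental cells, 35.2, 32.0 and 33.6 in clone 1 and 31.2, 32.5 and 32.9 in clone 19. The groups did not overlap with the parental line, but the size was small at 0.20 ± 0.03 (adjusted p = 2.9e-04, limma) and 0.14 ± 0.03 (adjusted p = 0.0037). With neighbouring genes subtracted the values were 0.12 (adjusted p = 0.0067) and 0.04 (adjusted p = 0.26), and on recovered reads 0.13 and 0.09. Lamb2, the alternative beta chain, was at -0.05 in clone 1 (adjusted p = 0.28) and fell by 0.20 ± 0.04 in clone 19 (adjusted p = 0.0012). The clone 1 value was called on recovered reads (-0.13, adjusted p = 0.0012), and the clone 19 fall was -0.11 with neighbours subtracted. The mean of Lamb2 was 15.2, 14.6 and 13.1 RPKM in the 3 groups. Lamb3, the beta chain of hemidesmosomal laminin, was too low to be tested, with a highest value of 1.11 RPKM.

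Lamc1 (Entrez 226519), the gamma chain of most laminins, was at 48.9, 48.1 and 45.8 RPKM in parental cells, 62.2, 52.3 and 55.4 in clone 1 and 45.3, 48.0 and 47.9 in clone 19. It rose in clone 1 (0.24 ± 0.05, adjusted p = 0.0017, limma), while clone 19 overlapped the parental line (-0.02 ± 0.05, adjusted p = 0.8). With neighbours subtracted the clone 1 rise was 0.15 (adjusted p = 0.016). In the sums of each family, laminin alpha RPKM was 1.75 and 1.61 times the parental sum in clone 1 and clone 19, and laminin beta RPKM 1.09 and 1.02 times.

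The laminin-binding integrin alpha subunits are Itga3, Itga6 and Itga7, and they moved apart. Itga3 (Entrez 16400) pairs with the beta1 subunit to bind laminins that hold the Lama5 or Lama3 chain, and was the most abundant alpha subunit in every group. Its level was 87.4, 87.6 and 87.4 RPKM in parental cells, 187, 182 and 180.0 in clone 1 and 172, 173 and 173 in clone 19. Clone 1 stood highest, clone 19 just below it and the parental line lowest, with no overlap. The log2 rise was 1.06 ± 0.02 (adjusted p = 9.9e-12, limma) and 0.98 ± 0.02 (adjusted p = 1.7e-11), and the medians of the 50 nearest genes were 0.05 and 0.02.

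Itga6 (Entrez 16403) pairs with the beta1 or beta4 subunit and, with beta4, anchors hemidesmosomes. It was at 13.5, 12.9 and 12.6 RPKM in parental cells, 5.87, 5.29 and 5.59 in clone 1 and 8.81, 8.88 and 8.80 in clone 19. The order was parental, clone 19, clone 1, again with no overlap. The fall was -1.15 ± 0.04 in clone 1 (adjusted p = 1.5e-09, limma) and -0.53 ± 0.04 in clone 19 (adjusted p = 7.7e-07). Genes around Itga6 were lower as well, with medians of -0.26 and -0.26. After subtraction the clone 19 fall was -0.27 (adjusted p = 1.2e-04).

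Its partner in hemidesmosomes, Itgb4, fell in the same order. Itgb4 went from 1.58 ± 0.101 RPKM to 0.693 ± 0.0502 in clone 1 (-0.80 ± 0.07, adjusted p = 1.3e-06, limma) and 1.07 ± 0.0278 in clone 19 (-0.40 ± 0.07, adjusted p = 3.6e-04). Between 92 and 436 reads per library lay behind these values. In the alternative test on recovered reads, the log2 changes of Itgb4 were -1.25 and -0.61. Itga7, a laminin receptor known best from muscle, had 43.9 ± 0.658 RPKM in the parental line, 33.6 ± 1.82 in clone 1 (-0.38 ± 0.04, adjusted p = 5.1e-06) and 42.8 ± 1.60 in clone 19 (-0.04 ± 0.04, adjusted p = 0.39). Genes next to Itga7 had medians of -0.33 and -0.31, and with them subtracted its value was -0.05 in clone 1 (adjusted p = 0.26) and 0.28 in clone 19 (adjusted p = 5.3e-05).

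The subunits that recognise the arginine-glycine-aspartate motif of fibronectin, vitronectin and latent TGF-beta are Itga5, Itgav, Itga8 and Itga2b. Itga5 (Entrez 16402), whose pair with beta1 is the main fibronectin receptor, was the second alpha subunit of the parental line at 55.4, 57.4 and 55.1 RPKM. It stood at 29.3, 29.0 and 28.4 RPKM in clone 1 and at 24.9, 25.8 and 24.5 RPKM in clone 19. All 6 knockout libraries lay between 24.5 and 29.3 RPKM, apart from the parental ones. The fall was -0.94 ± 0.03 in clone 1 (adjusted p = 2.4e-10, limma) and -1.14 ± 0.03 in clone 19 (adjusted p = 7.2e-11).

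Itgav (Entrez 16410), the shared alpha subunit of the vitronectin receptors and of the receptors for latent TGF-beta, changed little. It went from 45.7 ± 1.90 RPKM to 50.7 ± 2.97 in clone 1 (0.15 ± 0.04, adjusted p = 0.011, limma) and 49.5 ± 1.71 in clone 19 (0.11 ± 0.04, adjusted p = 0.037). Clone 1 overlapped the parental range. The clone 19 call ended without parental replicate 2 (adjusted p = 0.11), parental replicate 3 (0.12), clone 19 replicate 2 (0.062) or clone 19 replicate 3 (0.13). It also ended with no filter (0.078), median-ratio scaling (0.075), quantile normalization (0.22) or no variance trend (0.068). The clone 1 call ended with quantile normalization (adjusted p = 0.11). On recovered reads Itgav was at 0.06 and 0.05 (adjusted p = 0.077 and 0.14), whereas with its neighbours subtracted (medians -0.21 and -0.22) it was at 0.36 and 0.33. Itga2b, the platelet subunit, was near 1 RPKM in all groups and did not pass the test (-0.13 and -0.15, adjusted p = 0.18 and 0.14), but on recovered reads it was called lower at -0.30 and -0.28 (adjusted p = 0.024 and 0.035).

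Itga1 (Entrez 109700), a collagen receptor subunit, was the only collagen-binding alpha subunit above 1 RPKM. It rose from 1.75 ± 0.0728 RPKM to 3.76 ± 0.408 in clone 1 (0.92 ± 0.08, adjusted p = 8.5e-07, limma) and 2.51 ± 0.165 in clone 19 (0.42 ± 0.08, adjusted p = 4.5e-04). The clones did not overlap. Itga2, the other main collagen receptor of epithelia, was far lower, with 0.0996 RPKM in the parental line, 0.242 in clone 1 and 0.378 in clone 19 as means.

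Itgb1 (Entrez 16412), the beta subunit shared by most matrix receptors, was the most abundant of the 43 members. It stood at 248, 244 and 244 RPKM in parental cells, 396, 386 and 394 in clone 1 and 335, 347 and 343 in clone 19. The 3 groups were apart, with clone 1 highest. Itgb1 rose by 0.67 ± 0.02 (adjusted p = 1.9e-10, limma) and 0.48 ± 0.02 (adjusted p = 2.4e-09). The 50 genes nearest to Itgb1 had medians of 0.38 and 0.28, and with these subtracted the rise was 0.29 (adjusted p = 4.1e-07) and 0.19 (adjusted p = 1.3e-05).

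The beta subunits that pair with Itgav changed unequally. Itgb8 (Entrez 320910), whose pair with alphav binds and activates latent TGF-beta, was at 3.90, 3.73 and 3.56 RPKM in parental cells, 11.2, 10.6 and 11.3 in clone 1 and 12.7, 13.2 and 13.0 in clone 19. It was the member with the largest rise in clone 1, by 1.45 ± 0.04 (adjusted p = 2.6e-10, limma), and rose by 1.67 ± 0.04 in clone 19 (adjusted p = 1.1e-10). Itgb3 (Entrez 16416), the beta subunit of the classic vitronectin receptor, was at 1.40, 1.44 and 1.51 RPKM, then 4.12, 3.91 and 3.98 in clone 1, then 4.17, 3.92 and 4.49 in clone 19. Its 2 clones overlapped, and it rose by 1.21 ± 0.06 and 1.26 ± 0.06 (adjusted p = 9.9e-09 and 7.7e-09). Itgb5, a further vitronectin receptor subunit, was slightly lower, from 14.2 ± 0.0223 RPKM to 13.3 ± 0.282 (-0.09 ± 0.03, adjusted p = 0.02) and 11.2 ± 0.290 (-0.33 ± 0.03, adjusted p = 2.7e-06). Without parental replicate 2 or clone 1 replicate 3 the clone 1 call for Itgb5 ended (adjusted p = 0.051 and 0.077), as it did with its neighbours subtracted (-0.05, adjusted p = 0.22). On recovered reads it was -0.17. Itgb6, the epithelial partner of alphav, had at most 10 reads in a library. On the scale of the test, 3 tested members changed at least 2-fold in the same direction in both clones (2.84% of all tested genes). They were Nid1, Itgb3 and Itgb8. That scale understates the change of low genes. In mean RPKM Itgb7 also changed more than 2-fold, to 43.6% of its parental level in clone 1 and 44.1% in clone 19.

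Itgal (Entrez 16408), the alpha subunit of the leukocyte receptor LFA-1, was raised in 1 clone. It was at 0.407, 0.318 and 0.255 RPKM in parental cells, 0.420, 0.527 and 0.456 in clone 1 and 3.19, 2.57 and 3.05 in clone 19. In recovered reads these were 44 to 94 per parental library, 51 to 90 in clone 1 and 395 to 490 in clone 19. The clone 19 mean was 8.99 times the parental mean and 6.28 times that of clone 1. The log2 change was 2.06 ± 0.10 in clone 19 (adjusted p = 1.2e-08, limma) and 1.83 ± 0.10 between the clones (adjusted p = 4.0e-07). Itgal passed the filter only through the clone 19 libraries, so a rise there was favoured in advance. These p-values are therefore no independent support for the rise. In clone 1 it was 0.23 ± 0.10 (adjusted p = 0.053), and this value passed the threshold without parental replicate 1 (0.30, adjusted p = 0.026) or without clone 19 replicate 2 (adjusted p = 0.042). With a pseudocount of 0.1 it was 0.42 (adjusted p = 0.027), with quantile normalization 0.68 (adjusted p = 1.0e-04) and on recovered reads 0.44 (adjusted p = 0.048). Itgal was the only tested member with a difference of at least 2-fold between the clones (0.461% of all tested genes).

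Itgb2, the obligate beta partner of Itgal, did not rise with it. Its summed reads over 3 libraries were 175 in the parental line, 90 in clone 1 and 76 in clone 19, and its mean level was 0.580, 0.360 and 0.305 RPKM. Itgb7, a beta subunit of lymphocytes, fell from 1.58 ± 0.0198 RPKM to 0.690 ± 0.105 and 0.698 ± 0.122 (-0.81 ± 0.09 and -0.80 ± 0.09, adjusted p = 1.4e-05 and 1.8e-05, limma). On recovered reads the fall of Itgb7 was -1.29 and -1.26. Itgb7 passed the filter only through the parental libraries, so a fall was favoured in advance and its p-values are no independent support. Of 23 leukocyte markers listed, 2 were tested. Cd68, a macrophage marker, went from 2.62 ± 0.165 RPKM to 3.12 ± 0.218 in clone 1 (0.22 ± 0.10, adjusted p = 0.062) and rose to 3.56 ± 0.583 in clone 19 (0.37 ± 0.10, adjusted p = 0.005), with a difference between the clones of 0.16 ± 0.10 (adjusted p = 0.22). Cd14 was not called in either clone (-0.10 and -0.14, adjusted p = 0.28 and 0.15). Csf1r, the macrophage growth factor receptor, was below the test at 0.840 to 0.999 RPKM in parental cells, 0.205 to 0.213 in clone 1 and 0.146 to 0.178 in clone 19. Cd3e and Ncr1 were at 0 in every library, Ptprc (CD45) was at most 0.00601 RPKM, and the summed marker level ran from 6.24 to 6.62 RPKM in the parental line, 5.35 to 6.41 in clone 1 and 5.46 to 6.55 in clone 19. The part of leukocyte RNA in the Itgal change was not tested.

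The 18 members that were not tested lay at 357 reads per group or fewer. Their reads are the smallest whole numbers with the ratios of the listed values, summed over the 3 libraries of a group. Itga9, a tenascin and osteopontin receptor subunit, had 92 reads in the parental line and 6 and 5 in clone 1 and clone 19. Itga11, a fibroblast collagen receptor subunit, had 29, 7 and 5. In both genes the RPKM of each parental library was above all knockout libraries. Itga2 went the other way with 44, 84 and 141 reads, and clone 1 overlapped the parental line. Lama3 had 61, 84 and 107 reads and Lamc3 had 24, 33 and 41, with the RPKM of every parental library under all knockout libraries in both. Lamb3 had 357, 345 and 267 reads, the parental range overlapped that of each clone, and the clones did not overlap. Itga10 (48, 37 and 42 reads), Itgae (37, 34 and 31), Lama1 (22, 20 and 17) and Lama2 (18, 16 and 13) overlapped between the groups. Itgb6 had 18, 7 and 11 reads, Itgam had 10, 7 and 16, and Itga4, Itga8, Itgad and Itgax had at most 6 in any group. Itgb2l had no read in any library, which allows up to 3 reads per library. These reads cover counting error only and carry no test.

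**Figure D3:**
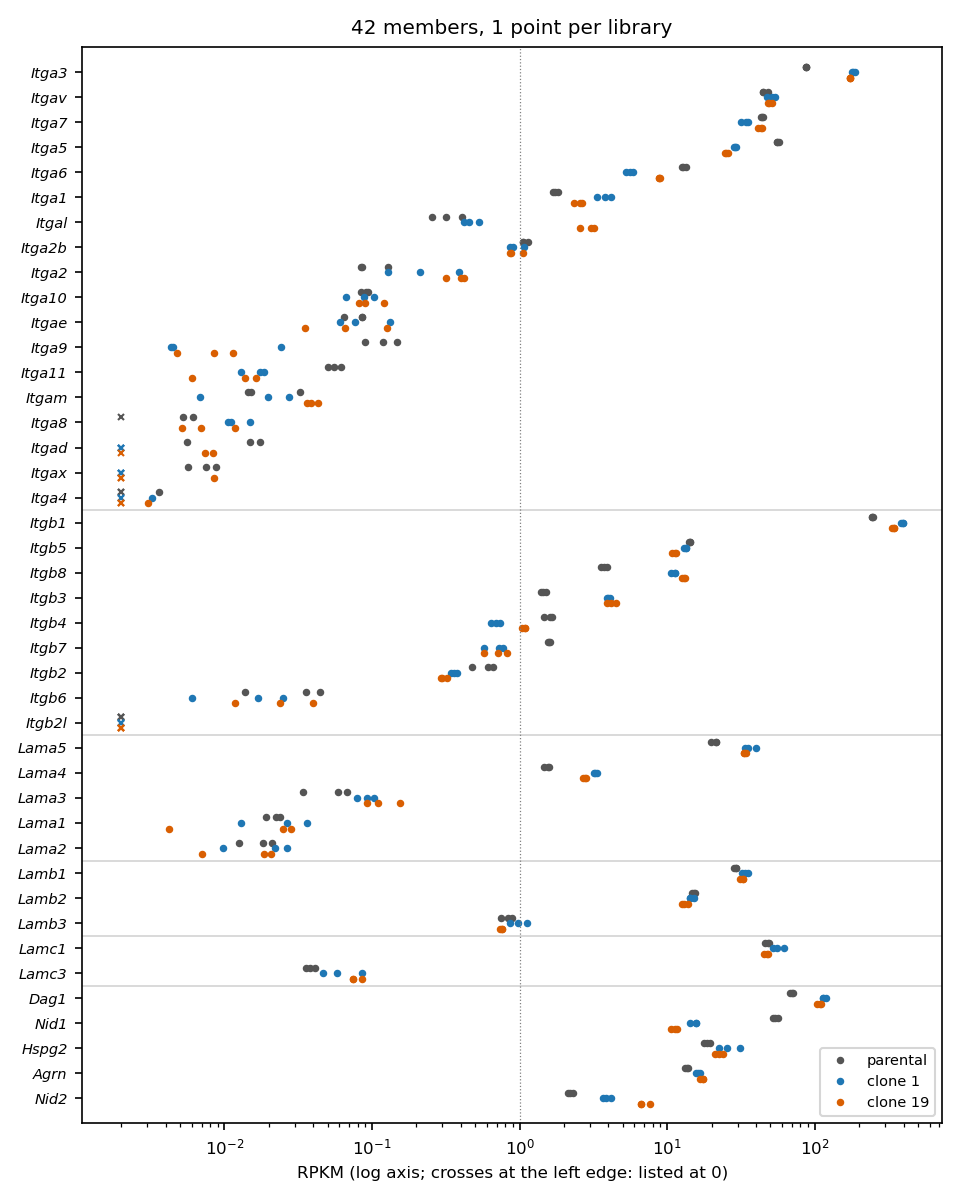
RPKM of 42 of the 43 members on a log axis, 1 point per library, grouped by family, with a dotted line at 1 RPKM, the level used in the filter, and crosses for values listed at 0. The members span from 0 to about 396 RPKM, and among the members that were not tested Itga9, Itga11 and Itgb2 have all parental libraries to the right of the knockout libraries.

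The order of the alpha subunits changed below the first place. In the parental line it ran Itga3, Itga5, Itgav, Itga7, Itga6, Itga1, Itga2b and Itgal, with Itgav and Itga7 overlapping. In clone 1 it ran Itga3, Itgav, Itga7, Itga5, Itga6, Itga1, Itga2b and Itgal with no overlap between neighbours. In clone 19 Itgal stood sixth and overlapped Itga1. Among beta subunits Itgb1 was first and held 91.4% ± 0.0897, 92.9% ± 0.0308 and 91.8% ± 0.138 of the summed RPKM in the 3 groups. Itgb8 passed Itgb5 in clone 19 only, at 12.9 against 11.2 RPKM.

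As shares of the summed alpha subunit RPKM, Itga3 went from 35.0% ± 0.384 in the parental line to 59.5% ± 0.546 in clone 1 and 56.4% ± 0.309 in clone 19. The 3 laminin-binding subunits together went from 57.8% ± 0.295 to 72.2% ± 0.662 and 73.3% ± 0.356, and the 4 subunits for the arginine-glycine-aspartate motif from 41.1% ± 0.305 to 26.2% ± 0.565 and 24.7% ± 0.394. Within the beta subunits other than Itgb1, the share of Itgb8 went from 16.1% ± 0.558 to 36.7% ± 0.830 and 42.5% ± 0.847 and that of Itgb5 from 61.3% ± 0.806 to 44.2% ± 1.17 and 36.8% ± 1.00. No share overlapped between the parental line and a clone. The shares follow from the member values above and are no further test.

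**Figure D4:**
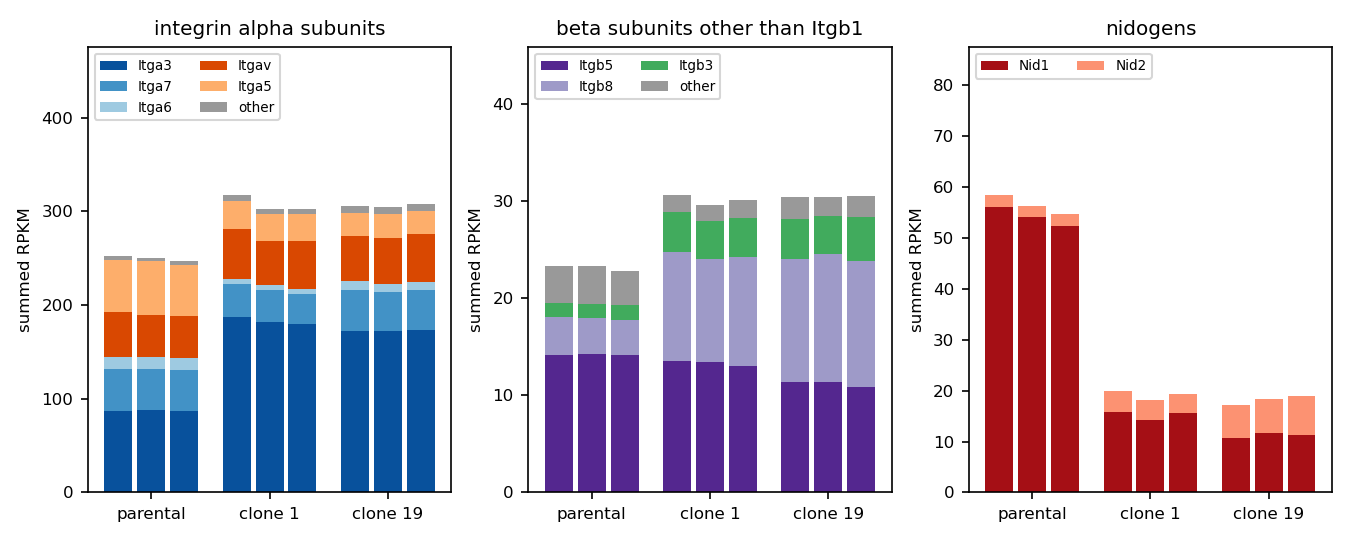
Summed RPKM per library of the integrin alpha subunits, of the beta subunits other than Itgb1 and of the nidogens, 1 stacked bar per library, coloured by gene. Itga3 takes 34.7 to 35.5% of the alpha sum in the parental libraries and 56.2 to 60.0% in the knockout libraries, while the nidogen sum is 54.6 to 58.3 RPKM in the parental libraries and 17.3 to 19.9 RPKM in the others.

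Between the clones, 17 of the 25 members were called (43% of all tested genes), 6 of them higher (18.5%) and 11 lower (24.5%) in clone 19. Apart from Itgal, the larger differences (clone 19 minus clone 1) were Nid2 at 0.77, Itga6 at 0.62, Itga1 at -0.50, Nid1 at -0.42 and Itgb4 at 0.40 on the log2 scale. Itgav, Itgb3, Itgb7, Itga2b, Lama5, Lamb1, Agrn and Hspg2 were not called between the clones. Single libraries decided 6 of these comparisons. Without clone 1 replicate 2 the differences of Lama5 (-0.16, adjusted p = 0.033), Lamb1 (-0.10, adjusted p = 0.043) and Hspg2 (-0.32, adjusted p = 0.011) were called. That of Lamb2 (-0.15, adjusted p = 0.014) was lost without clone 1 replicate 1 (adjusted p = 0.05) or clone 19 replicate 3 (0.054), and that of Dag1 (-0.10, adjusted p = 0.013) without clone 19 replicate 1 (0.053). Agrn (0.09, adjusted p = 0.055) was called without clone 1 replicate 3 (0.11, adjusted p = 0.035) or clone 19 replicate 2 (0.11, adjusted p = 0.038). With the neighbouring genes subtracted the differences of Itga3 (-0.05, adjusted p = 0.073), Lamb2 (-0.03, adjusted p = 0.59), Lamc1 (-0.08, adjusted p = 0.22) and Dag1 (0.02, adjusted p = 0.7) were not called. Under the same setting Agrn (0.11, adjusted p = 0.026) and Hspg2 (-0.29, adjusted p = 0.028) were called. On recovered reads both were called too (0.11 and -0.19, adjusted p = 0.0045 and 0.027, limma voom). Agrn was also called with median-ratio scaling (adjusted p = 0.029) and quantile normalization (0.025).

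Genes that act with the members were described by 5 lists. Beside their counts, 39.8% of all tested genes were called higher and 32.6% lower in clone 1, and 36.7% and 32.3% in clone 19. No list was tested against these shares. Integrin activators, adaptors and focal adhesion genes had 34 of 39 tested, of which 17 were called higher and 14 lower in clone 1 and 16 and 9 in clone 19, with a median change of 0.07 in each. Apbb1ip, which brings talin to integrins, fell from 15.6 ± 0.127 RPKM to 4.02 ± 0.230 and 3.07 ± 0.373 (log2 -1.84 ± 0.07 and -2.18 ± 0.07, adjusted p = 1.5e-09 and 4.6e-10, limma). Tln2, the second talin, fell by 1.05 ± 0.05 and 1.31 ± 0.05, while Vcl (vinculin) rose by 1.03 ± 0.03 and 0.86 ± 0.03 and Kank1, a talin-binding scaffold, rose by 0.75 ± 0.02 and 0.88 ± 0.02. Vcl was at 129 ± 4.29 RPKM in the parental line and at 264 ± 12.7 and 233 ± 5.09 in the clones. Of the 4 hemidesmosome genes 3 were tested, with 1 higher and 0 lower in clone 1 and 1 and 1 in clone 19. The median change of these genes was 0.01 and -0.22. The tetraspanin Cd151 was the 1 called higher in both clones (0.15 ± 0.03 and 0.21 ± 0.03).

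Other basement membrane genes had 16 of 29 tested, with 6 higher and 8 lower in clone 1 and 8 and 6 in clone 19. Fbln1 (fibulin 1, a binding partner of nidogen) fell from 3.97 ± 0.0405 RPKM to 0.0124 ± 0.0107 and 0.600 ± 0.0898 (-3.13 ± 0.08 and -2.03 ± 0.08, adjusted p = 1.1e-10 and 2.2e-09, limma). Col18a1, a basement membrane collagen, fell by 1.45 ± 0.07 and 1.08 ± 0.07, and Ntn4, a netrin that binds the laminin gamma1 chain, by 1.15 ± 0.07 and 0.94 ± 0.07. Fras1, an epithelial basement membrane protein, rose from 0.439 ± 0.0358 RPKM to 2.32 ± 0.382 and 2.13 ± 0.127. Fbln1 reached 1 RPKM only in the parental libraries and Fras1 only in the clones. Each thus entered the test through the libraries where it was high, and its direction was favoured in advance.

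Integrin ligands outside the basement membrane had 24 of 29 tested, with 11 higher and 10 lower in clone 1 and 10 and 10 in clone 19. Those with the largest shared changes fell: Lrrc32, which displays latent TGF-beta on the cell surface, went from 4.15 ± 0.0658 RPKM to 0.0613 ± 0.0143 and 0.0533 ± 0.0373. Ltbp1, a latent TGF-beta binding protein of the matrix, went from 23.3 ± 0.492 RPKM to 3.18 ± 0.179 and 2.76 ± 0.149 (-2.69 ± 0.05 and -2.87 ± 0.05, adjusted p = 1.6e-11 and 1.4e-11, limma). Col1a1, a collagen I chain, fell by 0.94 ± 0.03 and 1.30 ± 0.03, and Postn (periostin) by 1.30 ± 0.09 and 0.77 ± 0.09. Lrrc32 and Postn reached 1 RPKM only in the parental libraries, so a fall was favoured in advance by the filter. The dystroglycan complex and the enzymes that glycosylate it had 25 of 32 tested, with 8 higher and 7 lower in each clone. Dmd (dystrophin) rose by 0.85 ± 0.06 and 0.54 ± 0.06, and Rxylt1, a xylosyltransferase of the dystroglycan glycan, fell by 0.56 ± 0.04 and 0.46 ± 0.04. Each of these 5 lists thus held genes called in both directions in at least 1 clone, and their medians lay between -0.22 and 0.08.

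Marker genes of several other cell states were called as well. The shares over all tested genes were again 39.8% higher and 32.6% lower in clone 1, and 36.7% and 32.3% in clone 19. Of the mesothelial markers 13 of 14 were tested, and 11 were called higher and 2 lower in each clone. The 2 lower were Msln and Krt7. Msln was at 108.5 to 114.3 RPKM in parental cells, 80.5 to 84.74 in clone 1 and 97.71 to 104.5 in clone 19. Krt7 was at 21 to 22.94, 4.498 to 5.101 and 13.83 to 15.61 RPKM. The summed level was 1800.0 to 1820.0 RPKM in the parental libraries, 3050.0 to 3150.0 in clone 1 and 3100.0 to 3110.0 in clone 19. Its most abundant genes were Upk1b, Upk3b and Krt18. Epithelial markers had 6 of 18 tested, 5 higher in clone 1 and 6 in clone 19, and 12 stayed below 1 RPKM in all libraries. Of the 6 tested, Cdh1 reached 1 RPKM only in clone 19 and Dsp only in the clones. A rise there was thus favoured in advance by the filter. The keratins Krt8, Krt18 and Krt19 stand in both lists. Mesenchymal markers had 15 of 18 tested, with 6 higher and 9 lower in clone 1 and 5 and 10 in clone 19. Their sum ran from 2180.0 to 2240.0 RPKM, from 2130.0 to 2180.0 and from 1860.0 to 1940.0. Fbln1 is among them and reached 1 RPKM only in the parental libraries, so its fall was favoured in advance. Endothelial and platelet markers had 3 of 13 tested (2 higher and 1 lower in each clone). Among these, Kdr reached 1 RPKM only in the parental libraries and Ppbp only in clone libraries. The fall of Kdr and the rise of Ppbp were thus favoured in advance by the filter. Of 10 glial and muscle markers none reached 1 RPKM. The part of these shifts in the member changes was not tested.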

How the data were processed

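Total RNA from 3 parental, 3 clone 1 and 3 clone 19 libraries was analysed as 1 table of RPKM values deposited by the authors, 1 column per library and 28059 Entrez genes. Per the submitters' processing notes the authors used the build NCBIM37 and the tools GSNAP and DESeq, without versions or roles. The sources used here name neither the annotation nor the counting rule, so how reads shared by overlapping genes were treated is unknown. Symbols came from RefSeq (24998 genes) and GENCODE tables (16), and 3045 genes stayed unnamed. Promoters are from RefSeq, GRCm38.p6, another build than that of the files, so no other coordinates are given.

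Values were taken as log2(RPKM + 0.5) and tested with limma 3.58.1 (R 4.3.3), with a trend of the variance on the mean, over the 12568 genes that had at least 1 RPKM in at least 3 libraries. One model held 3 group means over 9 libraries, and Benjamini-Hochberg adjustment ran within a contrast over all tested genes. Every adjusted p above and below is from this model unless another setting is named. Whole reads were recovered from the steps of the RPKM values for 100.0% of tested genes (tolerance 0.02 reads). They gave the depth of 20.1 to 36.0 megareads and an alternative test with limma voom, added after seeing the data. Per-library values are given for members called with at least a 2-fold change on the log2(RPKM + 0.5) scale, for the most abundant member of each family and for Nid1 and Itgal. From each further list up to 4 genes with the largest mean absolute change and the same called direction in both clones are named. The values of 1 tested member and of 2 list genes set by this rule are not reported here. All counts and tests include them. The members, lists and tests were chosen with earlier results of these data known. Alternatives were other pseudocounts, filters, scalings and weights, no trend, a replicate block, fits of the compared groups alone, leaving out each library, a 2-fold minimum, and subtracting in every library the median by which the 50 nearest tested genes deviated. In data simulated for clone 1 minus parental over 12568 genes, with 50 changed per size, the test recovered 60% at a log2 change of 0.25, 94% at 0.5 and 100% at 1, with 12 false calls. Far fewer genes changed there than were called in the real comparison (72.4%), so the adjustment was stricter in the simulation. Its recovery and false calls do not carry over to these data.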

Additional observations from a re-analysis of the deposited data

Results flagged for a closer look

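For 17 members the change from the parental line differed between the 2 clones, by limma's test of the difference itself (clone 19 minus clone 1, adjusted p under 0.05), which was the case for 43% of all tested genes. The values of 16 are given here. Higher in clone 19 were Itgal (1.83 ± 0.10), Nid2 (0.77 ± 0.07), Itga6 (0.62 ± 0.04), Itgb4 (0.40 ± 0.07), Itga7 (0.34 ± 0.04) and Itgb8 (0.22 ± 0.04), on the log2 scale with the SE. Lower in clone 19 were Itga1 (-0.50 ± 0.08), Nid1 (-0.42 ± 0.04), Lamc1 (-0.26 ± 0.05), Itgb5 (-0.24 ± 0.03), Lama4 (-0.21 ± 0.05), Itga5 (-0.20 ± 0.03), Itgb1 (-0.20 ± 0.02), Lamb2 (-0.15 ± 0.04), Dag1 (-0.10 ± 0.03) and Itga3 (-0.08 ± 0.02). In Itgal the 2 clones differed from the parental line by 0.23 and 2.06, and in Itga6 by -1.15 and -0.53. The clones are 1 line each, so these differences are between 2 clones.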

How the results depend on the processing

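Over 21 alternatives, the 75 comparisons of the 25 members (3 per member) gave 1563 values, of which 1508 kept their side of the threshold, 31 lost a call, 21 gained one and 3 changed sign with a call in at least 1 of the 2 fits. Among the 1508, 14 values of 4 comparisons (Itga2b, Itgav and Itgb7 between the clones, Lamc1 in clone 19) changed sign without a call in either fit, and lay between -0.09 and 0.07. The 3 sign changes with a call came with the neighbouring genes subtracted: Itga7 in clone 19 at 0.28, Agrn in clone 1 at -0.06 and Dag1 between the clones at 0.02; the medians of the neighbours are -0.31, 0.30 and -0.12. Under the same setting 19, 20 and 14 members were called in clone 1, in clone 19 and between the clones, and 16 the same way in both, beside 22, 22, 17 and 20. Leaving out each library gave 21 to 23, 20 to 22, 16 to 20 and 18 to 20. With a minimum change of 2-fold on the scale of the test the counts were 5, 6, 1 and 3. With recovered reads and voom they were 24, 23, 19 and 23. With no filter 25, 26, 18 and 21 of 42 members were called. Same-numbered libraries deviated together at correlations of -0.035 to 0.123, others at -0.14 to 0.081. Between the parental line and clone 1, same-numbered pairs were at 0.123, 0.068 and 0.071 and the others at -0.14 to 0.059. With 3 libraries per group these values cannot decide whether same-numbered libraries are paired. The replicate block left all counts at 22, 22, 17 and 20. Members under 1 RPKM rest on few reads and are described without a test.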
